A study of Mus musculus with 20 samples.

Results

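The genes described here are 10 RNA-binding splicing regulators that are known from work on epithelial and mesenchymal cells: Esrp1, Esrp2, Rbm47, Rbfox2, Mbnl1, Mbnl2, Mbnl3, Qk, Ptbp1 and Srsf1. They were chosen by name, not by a cut on their levels, and matched by Ensembl identifier. The choice was made with earlier results of these data known. They are 10 of 39179 genes in the count tables. All 10 passed the filter on low counts, which 12671 genes passed. RNA sequencing was done on immortalised mouse epithelial cells from kidney (strain C57BL/6J), all grown with added uridine, in 4 groups of 5 libraries. Fh1_fl_fl cells carry the genotype label Fh1 wt and are the control. The lines clone1 and clone19 are labelled Fh1 deletion, and Rec is labelled Fh1 wt re-expressed. The product of Fh1, fumarate hydratase, turns fumarate into malate in the TCA cycle. Each deletion line is a named clone, so what is particular to a clone and what follows the deletion cannot be told apart within it. The labels name neither the deleted stretch of Fh1 nor the cells from which Rec was made, and nothing in them tells separate cultures from repeat libraries of 1 culture. The p-values therefore measure only the spread between these libraries, which may be technical.

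Alternative splicing changes when epithelial cells take on mesenchymal features, and a small set of RNA-binding proteins sets much of that program. ESRP1 and ESRP2 are epithelial proteins that hold exons of FGFR2, CD44, CTNND1 and ENAH in their epithelial forms, and RBM47 is also most abundant in epithelia. Quaking (Qk), RBFOX2 and muscleblind (MBNL) proteins act on many mesenchymal or differentiated-cell exons, whereas PTBP1 and SRSF1 are general regulators with activity in most cells. All values here are transcript totals per gene. They do not show which exons were used.

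Within the epithelial program, miR-200 family microRNAs silence ZEB1 and ZEB2, which in turn repress epithelial genes, and Quaking is a known target of the same microRNAs. The mature sequences, from the RefSeq table for GRCm38.p6, are shown because their seeds (bases 2 to 8, in capitals) define the target letters searched below. They form 2 seed groups, which differ at 1 base.
mmu-miR-200b-3p: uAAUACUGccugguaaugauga
mmu-miR-200c-3p: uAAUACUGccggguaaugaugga
mmu-miR-429-3p: uAAUACUGucugguaaugccgu
mmu-miR-200a-3p: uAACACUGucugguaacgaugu
mmu-miR-141-3p: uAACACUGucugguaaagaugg
The miR-200b, miR-200a and miR-429 loci lie together on chromosome 4, and those of miR-200c and miR-141 on chromosome 6. In these libraries the 5 loci had between 0 and 3 counts each over all 20 libraries. Counts of long RNA do not measure mature microRNAs, so nothing is said here about their levels.

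Reverse complements of the seeds, CAGTATT and CAGTGTT, were searched on the transcript strand in the longest annotated 3′ UTR of each gene (GENCODE M21, GRCm38). Qk had 3 matches to each, the most among the 10 genes. Its UTR is 7014 bases long. Among 309 genes with a UTR of similar length (80 to 125%), 69.3% had a CAGTGTT and 51.1% a CAGTATT, with a median of 1 for each. Each line below gives a Qk site on the minus strand of chromosome 17 with the match in capitals.
chr17:10208164-10208186: ggttattaccgtcttCAGTGTTa
chr17:10207850-10207872: ggaaagcccgcatcaCAGTGTTc
chr17:10207177-10207199: tgaaaacttagttgaCAGTGTTt
chr17:10207336-10207358: acaaacaaacagtacCAGTATTt
chr17:10207116-10207138: gaatgccttggttctCAGTATTa
chr17:10207044-10207066: agacttttttcctgaCAGTATTa
Rbfox2 had 2 CAGTATT matches, on the minus strand of chromosome 15, where 41.4% of 669 genes of like UTR length had at least 1.
chr15:77079749-77079771: tgtattttctgttaaCAGTATTt
chr15:77079203-77079225: agctttcagaccataCAGTATTc
Srsf1 also had 2 CAGTATT matches, against 35.4% of 1092 like genes with at least 1. Ptbp1 had 1 CAGTATT, and Mbnl1 and Mbnl3 had 1 CAGTGTT each. The letters were not in the UTRs of Esrp1, Esrp2, Rbm47 and Mbnl2. A match is a description of the sequence and not a shown binding site.

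The gene counts of a library summed to between 5988447 and 18972176 (median 10485784). Library clone19 replicate 3 stood apart: 8.2% of its counts fell on the rRNA-rich locus Gm42418 (median over all libraries 0.314%), and the chi-square per degree of freedom against the other clone19 libraries was 61.8 to 92.2, against 2.04 to 19.4 in all other pairs of replicates. Kidney epithelial markers were present in every group (11 of 11 detected), with a summed level of 4153 to 4868 CPM (the count relative to a library size scaled by the trimmed mean of M-values, TMM) in Fh1_fl_fl. That sum was 2443 to 2979 in clone1, 2361 to 2698 in clone19 and 5364 to 6063 in Rec. By gene, 8 fell and 2 rose in clone1, 10 fell and 1 rose in clone19, and 5 fell and 3 rose in Rec (median log2 -0.07), so the higher sum in Rec does not describe most of its markers. For such counts (adjusted p under 0.05), the background over all tested genes was 40.5% lower and 38% higher in clone1. It was 36.1% and 36.8% in clone19 and 37.4% and 33.4% in Rec. Of 10 mesenchymal markers, 8 were detected in Fh1_fl_fl, clone1 and Rec and 9 in clone19; Pdgfrb was at 0 throughout. Their summed level was 1954 to 2722 CPM in the control, 2607 to 3657 in clone1, 3623 to 5508 in clone19 and 2181 to 2944 in Rec, and of 7 tested, 4 rose and 1 fell in each clone and 2 rose and 2 fell in Rec. Among them Vim, the mesenchymal intermediate filament gene, was at 7.66 ± 1.01 CPM in the control and 1.16 ± 0.284 in Rec, against 567 ± 39.5 in clone1 and 69.5 ± 3.34 in clone19 (mean ± SD of 5 libraries, as throughout). Of the epithelial markers, Cdh1 was at 426 ± 55.6 CPM in the control, 168 ± 30.3 in clone1, 272 ± 19.2 in clone19 and 360 ± 28.7 in Rec. Epcam was at 439 ± 29.2, 86.7 ± 13.8, 226 ± 13.2 and 422 ± 15.9 CPM in the same order. Summed markers of smooth muscle and endothelium stayed at or below 9.8 CPM. Those of leukocytes lay between 19.9 and 52.5 and those of neurons between 14.6 and 48.4. The part of these differences in the results below was not tested. In bulk RNA, fewer cells of a type and less RNA per cell cannot be told apart. Transcripts of Fh1 itself stood at 92.4 ± 6.16 CPM in the control and at 113 ± 5.94 (clone1), 84.8 ± 7.32 (clone19) and 71.3 ± 7.08 (Rec) in the other lines; with the deleted stretch not given, this total does not check the labels.

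Esrp2 was low in both deletion clones, whereas Esrp1 and Mbnl3 were low in clone1 and near the control in clone19. Rbm47 was lower than the control in all 3 derived lines. The transcripts of Mbnl1 and Ptbp1 were highest in Rec, where Mbnl2 was lowest, and Qk was highest in clone19. The plot of every library against its group shows these levels.

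**Figure D1:**
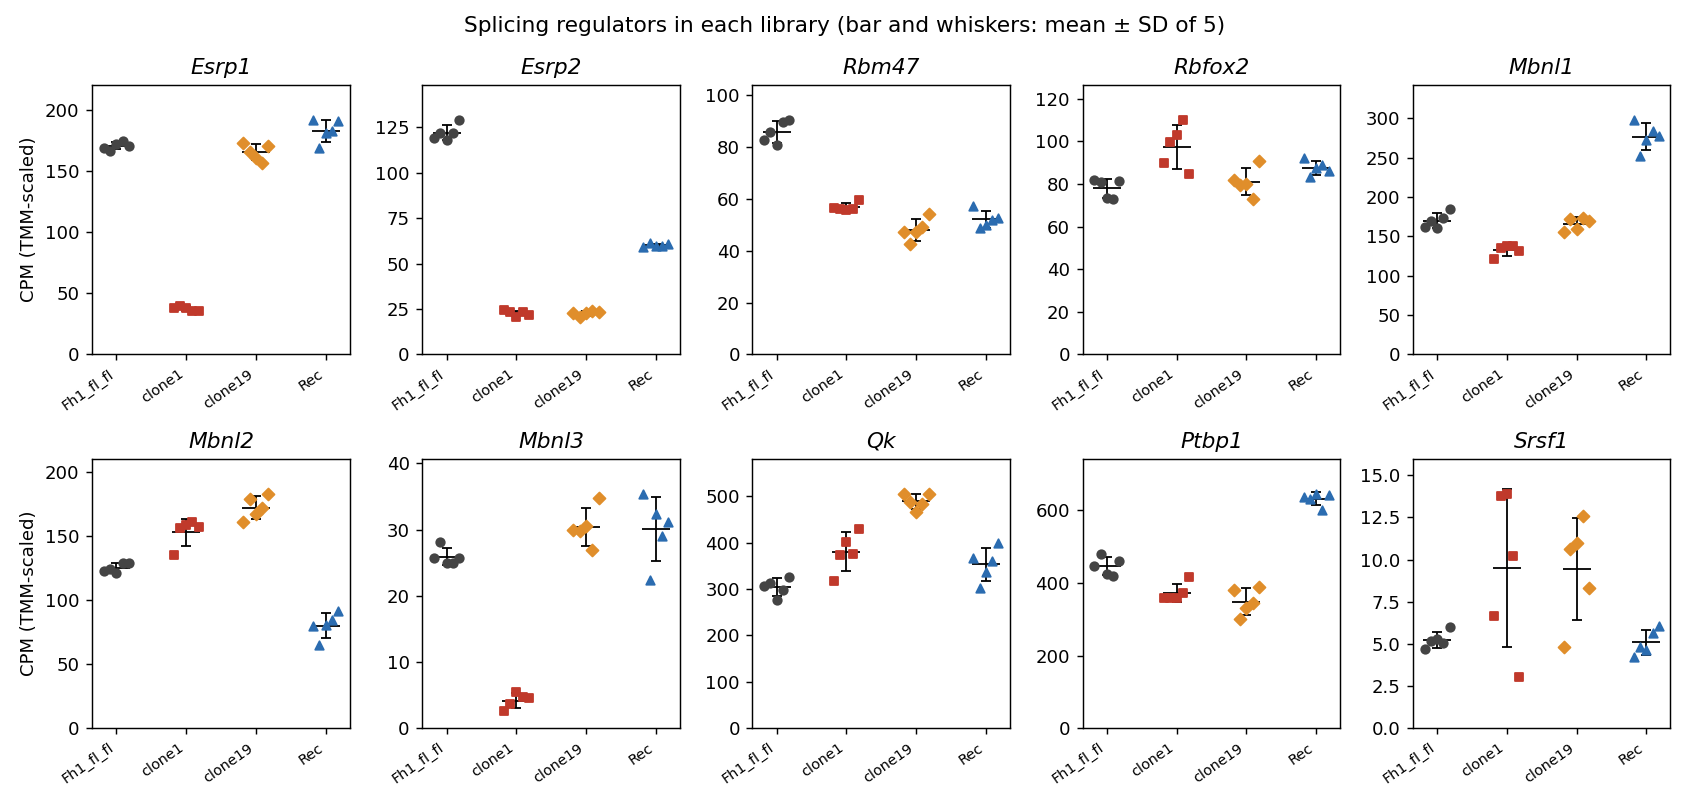
Level of each of the 10 splicing regulators in each library, in CPM on TMM-scaled library sizes, with axes from 0; points are libraries, and bars with whiskers are the mean ± SD of 5. Esrp2 averages 22.6 CPM in clone1 and 22.5 in clone19, the clone1 points of Esrp1 and Mbnl3 lie below those of the other groups, and Srsf1 reaches at most 13.9 CPM with a wide spread in the clones.

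In clone1 against Fh1_fl_fl, all 10 regulators passed the test at an adjusted p under 0.05 (edgeR quasi-likelihood, Benjamini-Hochberg over all 12671 genes), 4 higher and 6 lower. The background was 78.6% of all tested genes, so passing the test does not set these genes apart. Esrp1, Esrp2 and Mbnl3 were called over 2-fold lower (glmTreat, which tests against a 2-fold change), 3 of 10 against a background of 21.7%. The libraries of the groups did not overlap for 8 of the 10, against 65.5% of all genes. The median absolute log2 fold change was 0.48 among the 10 and 0.58 among all tested genes.

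In clone19 against the same controls, 6 of 10 passed the test, 3 higher and 3 lower, against a background of 72.9%. Esrp2 alone was called over 2-fold, against 15.5% of all genes, and the libraries did not overlap for 5 of 10 against 59%. In Rec, 7 of 10 passed, 4 higher and 3 lower, with a background of 70.8%. None of the 10 was called over 2-fold there, against 11.1% of all genes, and 6 of 10 did not overlap with the controls against 58.3%. The median absolute change was 0.41 in clone19 and 0.36 in Rec, against 0.48 and 0.44 over all genes. All 3 comparisons share the Fh1_fl_fl libraries.

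Among the derived lines, clone1 and clone19 differed in 7 of the 10 regulators, 2 higher and 5 lower in clone1, against a background of 65.1% (31.6% higher and 33.5% lower). Of these, 2 were called over 2-fold (9.58% of all genes) and 5 had libraries that did not overlap (45.3%). Between clone1 and Rec, 8 of 10 differed, 3 higher and 5 lower in clone1, against 77.9% (38.1% and 39.7%). Esrp1, Esrp2 and Mbnl3 were over 2-fold there (22% of all genes), and 6 did not overlap (62.9%). Between clone19 and Rec, 7 of 10 differed, 3 higher and 4 lower in clone19, against 73.8% (38% and 35.8%). Esrp2 was over 2-fold (15.5%), and 5 did not overlap (57.5%). The median absolute change was 0.90 between clone1 and Rec and 0.60 between clone19 and Rec, against 0.61 and 0.51 over all genes. Between clone1 and clone19 it was 0.25, below the 0.38 of all genes.

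**Figure D2:**
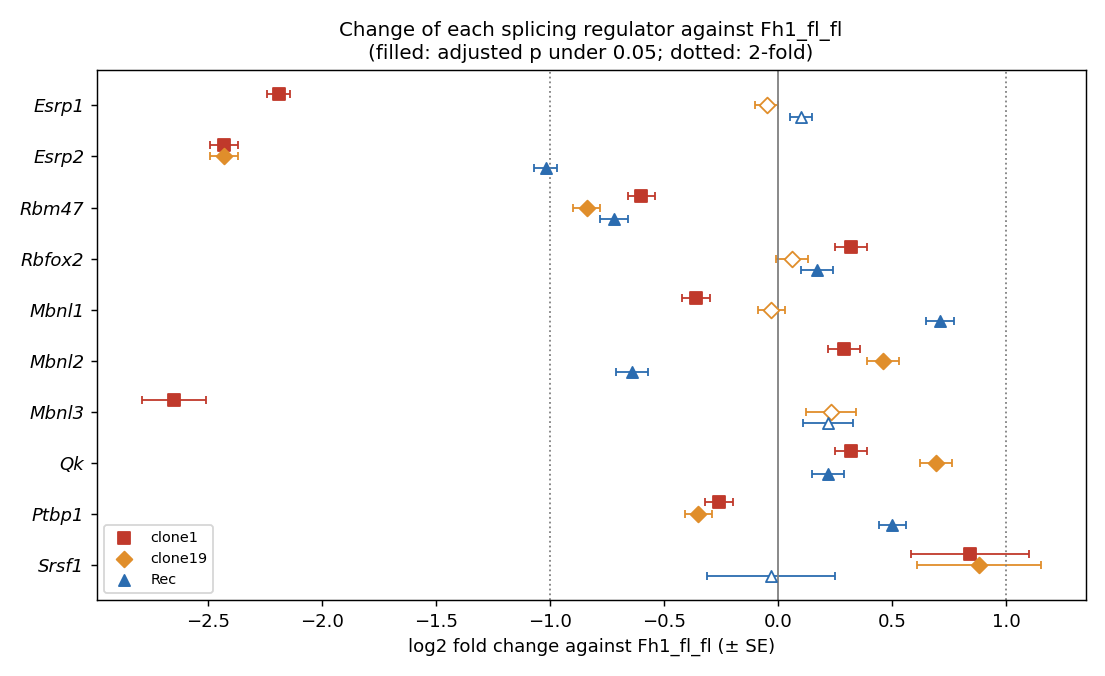
Fitted log2 fold change (± SE) of each regulator in clone1, clone19 and Rec against Fh1_fl_fl; filled symbols passed an adjusted p under 0.05, and dotted lines mark a 2-fold change. Esrp1 and Mbnl3 lie beyond the left dotted line for clone1, and Esrp2 for both clones and, at -1.02, barely for Rec (not called over 2-fold). Mbnl1, Mbnl2 and Ptbp1 have opposite signs in Rec and in at least 1 clone.

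Scaling matters for small changes against Fh1_fl_fl. Without a scaling factor, on library totals alone, the median log2 change of all genes moved by -0.142 in clone1, -0.124 in clone19 and -0.132 in Rec. Higher genes made up 47.2% of the calls in Rec, and 36.6% on those totals. For clone1 the corresponding shares were 48.4% and 40.1%, and for clone19 50.5% and 40.7%. Between the derived lines the shift lay between -0.018 and 0.00774.

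Esrp1 encodes epithelial splicing regulatory protein 1 (chromosome 4, 11331933 to 11386783, minus strand, GRCm38). The 5 Fh1_fl_fl libraries had 169, 167, 172, 175 and 171 CPM, and those of clone1 had 38.2, 39.8, 38.3, 35.4 and 35.7. In clone19 the values were 173, 166, 161, 157 and 171, and in Rec they were 192, 169, 181, 183 and 191. Every clone1 library lay far below every other library, while clone19 and Rec overlapped the control. Esrp1 fell 4.55-fold in clone1 (log2 -2.19, SE 0.05, adjusted p = 1.81e-22). The log2 difference from the control was -0.05 (SE 0.05, adjusted p = 0.428) in clone19, which on library totals became -0.17 with an adjusted p of 0.0131. In Rec it was 0.10 (SE 0.05, adjusted p = 0.076), and -0.03 on library totals. Compared directly, clone1 was 4.41-fold below clone19 (log2 -2.14, SE 0.06, adjusted p = 1.97e-21) and 4.88-fold below Rec (log2 -2.29, adjusted p = 8.82e-23).

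Esrp2 encodes the closest paralogue, ESRP2 (chromosome 8, 106130319 to 106136974, minus strand). Its 5 control values were 119, 122, 118, 122 and 129 CPM. The clone1 libraries had 24.3, 23.2, 20.7, 23.1 and 21.8 CPM, and the clone19 libraries 22.6, 20.3, 22.8, 23.6 and 23.5. In Rec all 5 values lay between control and clones, at 59.1, 61.1, 59.9, 59.8 and 60.7 CPM. The ranges of the clones overlapped, and no library of Rec or the control reached their range. Esrp2 fell 5.4-fold in clone1 (log2 -2.43, SE 0.06, adjusted p = 9.75e-23) and 5.41-fold in clone19 (log2 -2.43, SE 0.06, adjusted p = 3.15e-22). The difference between the clones was 0.00 log2 with an SE of 0.07 (adjusted p = 0.987), and it ranged from -0.04 to 0.04 over the alternative settings. In Rec the transcript was 2.03-fold lower than in the control (log2 -1.02, SE 0.05, adjusted p = 2.84e-15) and 2.66-fold higher than in either clone (log2 -1.41 for clone1 minus Rec and -1.41 for clone19 minus Rec, adjusted p = 1.07e-17 and 3.45e-17). The Rec value did not exceed 2-fold by the stricter test (adjusted p = 0.903), but it did on library totals (log2 -1.15). Exons of Esrp2 share 219 bases with Nfatc3 and 119 with 1810019D21Rik on the opposite strand; whether the counting used strand is not stated in the labels.

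Levels per kilobase used all merged exons, 6305 bases for Esrp1 and 4340 for Esrp2. By this measure the Esrp genes were nearly equal in the control: Esrp1 made up 49.1% ± 0.966 of their summed CPM per kilobase. Another choice of length would move the shares in every group, and the SD covers only the spread between libraries. In clone1 Esrp1 made up 53.3% ± 1.85, with both genes low and the sum down from 55.2 ± 1.07 to 11.2 ± 0.47 CPM per kilobase. In clone19 Esrp1 made up 83.5% ± 1.08 of a sum of 31.5 ± 1.07, and in Rec 67.7% ± 1.3 of a sum of 42.9 ± 1.36. The share lay between 82.1 and 84.9% in the 5 clone19 libraries, above the highest value of any other group (69.1% in Rec).

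**Figure D3:**
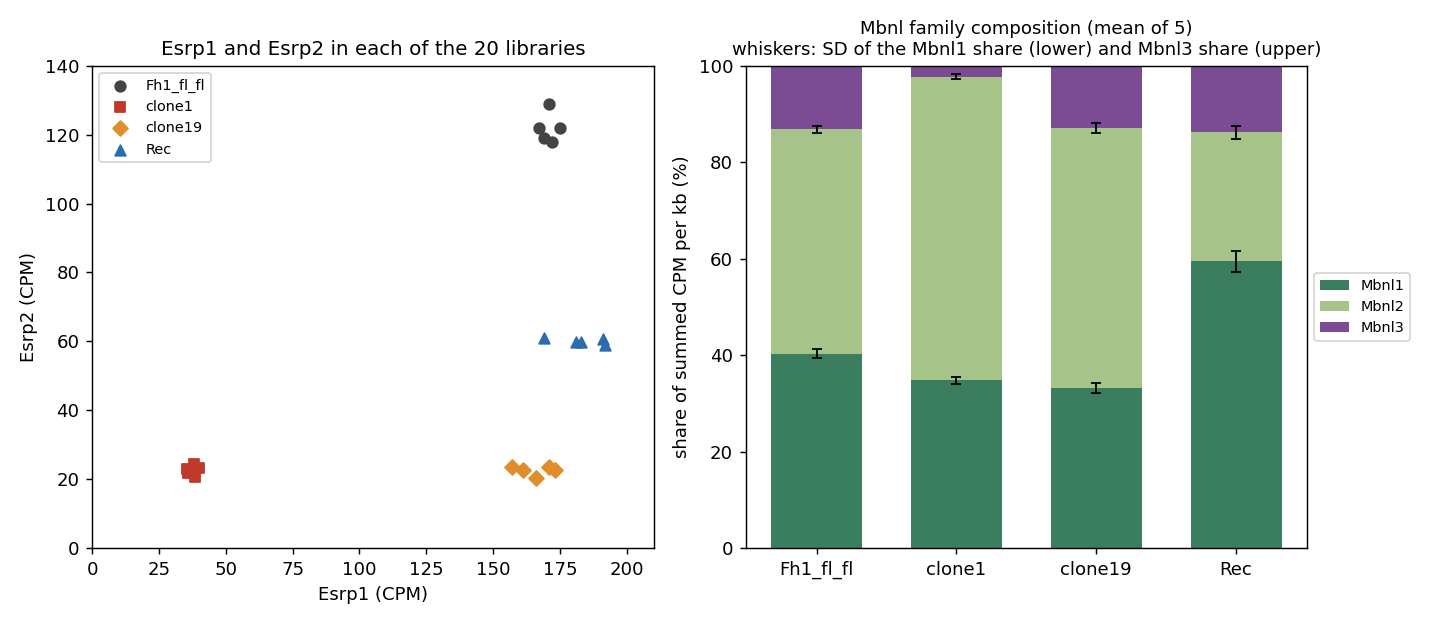
Left, CPM of Esrp1 against Esrp2 in each of 20 libraries; the 4 groups form separate sets, with clone19 low on the Esrp2 axis only. Right, mean share of Mbnl1, Mbnl2 and Mbnl3 in their summed CPM per kilobase, with the SD of the Mbnl1 and Mbnl3 shares over 5 libraries as whiskers; Mbnl3 shrinks to 2.32% in clone1, and Mbnl1 makes up 59.5% in Rec.

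Rbm47, an RNA-binding protein of epithelia that also takes part in mRNA editing (chromosome 5, 66016549 to 66173118, minus strand), fell in all 3 derived lines. The control had 82.7, 86.0, 80.9, 89.9 and 90.5 CPM and clone1 had 56.4, 56.3, 55.8, 56.2 and 59.7. The values were 47.1, 42.6, 47.4, 49.0 and 54.1 CPM in clone19 and 57.3, 48.8, 50.1, 51.7 and 52.8 in Rec. No library of a derived line reached the lowest control library. The fall was 1.51-fold in clone1 (log2 -0.60, SE 0.06, adjusted p = 1.64e-09), 1.79-fold in clone19 (log2 -0.84, SE 0.06, adjusted p = 4.55e-12) and 1.65-fold in Rec (log2 -0.72, SE 0.06, adjusted p = 5.98e-11). Between the clones, clone1 was higher by 0.24 log2 (SE 0.06, adjusted p = 0.00205). Rec differed from clone1 by 0.13 log2 (clone1 minus Rec, adjusted p = 0.0705, from 0.0233 to 0.23 over the alternatives) and from clone19 by -0.11 (adjusted p = 0.111, from 0.0258 to 0.302).

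The muscleblind family changed its composition. MBNL proteins bind short YGCY-containing RNA motifs and promote splice forms of differentiated cells. Mbnl1 (chromosome 3, 60472830 to 60629750, plus strand) was at 162, 169, 161, 173 and 185 CPM in the control and at 121, 135, 138, 138 and 131 in clone1. It was at 155, 172, 159, 174 and 170 CPM in clone19 and at 298, 252, 273, 284 and 278 in Rec. Every Rec library was above, and every clone1 library below, the 10 libraries of the control and clone19, which overlapped. Mbnl1 rose 1.63-fold in Rec (log2 0.71, SE 0.06, adjusted p = 2.05e-11) and fell 1.28-fold in clone1 (log2 -0.36, SE 0.06, adjusted p = 3.4e-06). In clone19 the log2 difference was -0.03 (SE 0.06, adjusted p = 0.654), and -0.15 with an adjusted p of 0.0411 on library totals. Against Rec, Mbnl1 was 2.09-fold lower in clone1 (log2 -1.06, adjusted p = 2.78e-15) and 1.67-fold lower in clone19 (log2 -0.74, adjusted p = 9.01e-12).

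Mbnl2 (chromosome 14, 120275669 to 120431697, plus strand) moved the other way in Rec. Control libraries had 123, 124, 121, 129 and 129 CPM and Rec libraries 79.6, 64.5, 80.8, 84.1 and 91.4. The values were 135, 156, 159, 161 and 157 CPM in clone1 and 161, 179, 167, 172 and 183 in clone19. All Rec libraries lay below, and all clone libraries above, the control range. Mbnl2 fell 1.56-fold in Rec (log2 -0.64, SE 0.07, adjusted p = 6.82e-09) and rose 1.38-fold in clone19 (log2 0.46, SE 0.07, adjusted p = 1.28e-06). It rose 1.23-fold in clone1 (log2 0.29, SE 0.07, adjusted p = 0.000408), a call that ended on library totals (log2 0.15, adjusted p = 0.0672). Clone19 was 2.15-fold above Rec (log2 1.11, adjusted p = 1.5e-13) and clone1 1.91-fold (log2 0.94, adjusted p = 2.64e-12). The difference of -0.17 log2 between clone1 and clone19 (adjusted p = 0.0346) was lost in most alternatives, with adjusted p up to 0.22; without clone1 replicate 1, the lowest clone1 library, it was -0.10.

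Mbnl3, the X-linked member of the family (51117269 to 51206532, minus strand), fell in clone1. That group had 2.59, 3.58, 5.39, 4.73 and 4.51 CPM, from 26 to 52 counts per library. Control libraries had 25.7, 28.1, 25.0, 25.0 and 25.7 CPM, clone19 libraries 30.0, 29.8, 30.6, 26.9 and 34.8, and Rec libraries 35.4, 22.4, 32.4, 29.0 and 31.2. The highest clone1 library was far below the lowest of the other 15. Mbnl3 was 6.27-fold lower in clone1 than in the control (log2 -2.65, SE 0.14, adjusted p = 1.21e-15), 7.38-fold lower than in clone19 (log2 -2.88, SE 0.14, adjusted p = 9.33e-16) and 7.31-fold lower than in Rec (log2 -2.87, adjusted p = 2.08e-16). Clone19 and Rec differed from the control by 0.23 (SE 0.11, adjusted p = 0.0546, from 0.00988 to 0.385 over the alternatives) and 0.22 (SE 0.11, adjusted p = 0.064, from 0.00431 to 0.472). Without Rec replicate 2, the lowest Rec library, the Rec difference was 0.33 with an adjusted p of 0.00431.

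Per kilobase, Mbnl1, Mbnl2 and Mbnl3 made up 40.3, 46.5 and 13.2% of the family in the control, and 33.2, 53.8 and 13% in clone19. In clone1 the shares were 34.8, 62.9 and 2.32%. In Rec they were 59.5, 26.7 and 13.7%, with Mbnl1 the largest. The order of Mbnl1 and Mbnl2 depends on the length used, here all merged exons (18717 and 11993 bases). Without a length, Mbnl1 was above Mbnl2 in the control too, at 170 and 125 CPM. The summed level differed less than its makeup, at 22.5 ± 0.824 CPM per kilobase in the control, 20.4 ± 1.38 in clone1, 26.7 ± 1.27 in clone19 and 24.9 ± 2.05 in Rec.

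Qk encodes Quaking, a STAR-family protein that binds ACUAA-type motifs and regulates many exons in mesenchymal cells, myelinating glia and circular RNA formation (chromosome 17, 10202601 to 10319854, minus strand). Its control values were 306, 312, 276, 298 and 326 CPM, and those of clone19 were 505, 487, 465, 484 and 505. The clone1 libraries had 316, 374, 402, 376 and 430 CPM and Rec had 367, 301, 337, 361 and 398. All clone19 libraries exceeded every other library, while clone1 and Rec each overlapped the control by their lowest library. Qk rose 1.61-fold in clone19 (log2 0.69, SE 0.07, adjusted p = 3.27e-09) and 1.25-fold in clone1 (log2 0.32, SE 0.07, adjusted p = 0.000252). The direct comparison placed clone1 0.37 log2 below clone19 (SE 0.07, log2 -0.37, adjusted p = 8.49e-05). In Rec the rise was 1.16-fold (log2 0.22, SE 0.07, adjusted p = 0.00985) and was lost on library totals (log2 0.08, adjusted p = 0.341); on those totals the clone1 rise was 0.18 (adjusted p = 0.0387). Rec was 1.39-fold below clone19 (log2 0.47 for clone19 minus Rec, adjusted p = 1.88e-06), and its difference from clone1 was 0.11 (clone1 minus Rec, adjusted p = 0.185). The UTR with 6 seed matches shown above belongs to this gene.

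Rbfox2 binds UGCAUG in introns and exons and is linked to mesenchymal exon choice (chromosome 15, 77078990 to 77307004, minus strand). The control had 81.9, 80.7, 73.4, 72.9 and 81.3 CPM and clone1 had 89.8, 99.5, 103, 110 and 84.5. The clone19 values were 81.8, 79.7, 80.2, 73.0 and 90.9 CPM and those of Rec 92.1, 83.1, 87.7, 88.7 and 86.2. The groups lay close together, with clone1 and Rec just above the control range and clone19 overlapping it. Rbfox2 rose 1.25-fold in clone1 (log2 0.32, SE 0.07, adjusted p = 0.000163; 0.18 with an adjusted p of 0.039 on library totals). The rise in Rec was 1.12-fold (log2 0.17, SE 0.07, adjusted p = 0.033) and was lost on library totals (log2 0.03, adjusted p = 0.706). It was also lost without Fh1_fl_fl replicate 3 (log2 0.16), Fh1_fl_fl replicate 4 (0.14) or Rec replicate 1 (0.15). In clone19 the log2 difference was 0.06 (SE 0.07, adjusted p = 0.479). Between the clones it was 0.26 (clone1 higher, SE 0.07, adjusted p = 0.00197).

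Ptbp1 encodes polypyrimidine tract binding protein, a repressor of many exons and, per kilobase, the most abundant of the 10 transcripts in the control (94.2 CPM per kilobase; chromosome 10, 79854427 to 79864771, plus strand). The control libraries had 448, 481, 425, 418 and 462 CPM, and the Rec libraries 638, 633, 646, 601 and 643. In clone1 the values were 359, 359, 360, 372 and 416 CPM, and in clone19 they were 380, 301, 330, 346 and 389. All Rec libraries were above, and all clone libraries below, the control range. Ptbp1 rose 1.42-fold in Rec (log2 0.50, SE 0.06, adjusted p = 9.51e-08), fell 1.2-fold in clone1 (log2 -0.26, SE 0.06, adjusted p = 0.000658) and fell 1.28-fold in clone19 (log2 -0.35, SE 0.06, adjusted p = 2e-05). Rec exceeded clone1 by 1.69-fold and clone19 by 1.81-fold (log2 -0.76 and -0.86 for clone minus Rec, adjusted p = 2.58e-11 and 3.8e-12). The clones differed by 0.10 log2 (SE 0.06, adjusted p = 0.194); without clone19 replicate 1 the value was 0.16 (adjusted p = 0.0396). These counts are uncertain: 46.6% of the Ptbp1 transcript matches other annotated genes at 95% identity or more (Gm4900, Gm17134 and Plppr3). Exons of Gm17134 and Plppr3 share 437 and 251 bases with Ptbp1 on the opposite strand, so their matches can be the same bases and not copies. Gm4900 shares no exon bases with Ptbp1 and matches it at up to 97% identity, over at most 890 bases in 1 match. Exons of E130317F20Rik, which is not among these matches, share 295 bases with Ptbp1 on the opposite strand. Reads that align to several places enter no gene, and the share lost this way was not tested.

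Srsf1 encodes a founding SR protein, an exon-binding activator of splicing (chromosome 11, 88047373 to 88053755, plus strand). Its counts were low, 29 to 142 per library. The control had 4.70, 5.19, 5.27, 5.02 and 5.98 CPM and Rec had 4.21, 4.82, 4.66, 5.65 and 6.08. The clones were scattered, with 6.67, 13.8, 13.9, 10.2 and 3.04 CPM in clone1 and 4.81, 10.6, 11, 12.6 and 8.29 in clone19. In each clone 1 library fell within or below the control range and the others lay above it. The fitted rise was 1.8-fold in clone1 (log2 0.84, SE 0.26, adjusted p = 0.00486) and 1.84-fold in clone19 (log2 0.88, SE 0.27, adjusted p = 0.00441). In Rec the log2 difference was -0.03 (SE 0.28, adjusted p = 0.942). Per kilobase of merged exons Srsf1 was at 0.916 ± 0.0825 CPM in the control. The 11 other tested SR proteins ranged there from 10.0 (Srsf4) to 109 CPM per kilobase, and in every group the lowest of them was above Srsf1. No source used here gives the annotation or strand setting of the counting, so whether all Srsf1 reads were counted was not tested.

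Among the 12671 tested genes, those whose log2 CPM followed each regulator most closely over the 20 libraries were listed by Pearson's r. The libraries fall into 4 groups, so r mostly reads the 4 group means. Esrp1 ran closest to Rab25, a small GTPase of epithelial vesicle transport (r = 0.993, n = 20 libraries; 19.3 CPM in the control, 1.69 in clone1, 18.6 in clone19 and 21 in Rec), Suds3 and Atp8b1 (r = 0.99 each). Esrp2 ran closest to Slc4a11, a membrane transporter (r = 0.995; 330, 32.1, 28.9 and 141 CPM in the same order), Kctd10 (0.995) and Elf3, an epithelial ETS transcription factor (0.991; 88.7, 11.9, 14.5 and 36.0 CPM). Of the 3 genes most like Mbnl3, the others being Havcr1 and Sh3bgrl2 (r = 0.982 each), 1 was Esrp1 (r = 0.98). Rbm47 ran with Cux1 (0.986), Sh3rf1 (0.975) and Sh3pxd2b (0.969). Mbnl1 ran with Mcm10, a DNA replication factor (0.981), and Ddx3x, an RNA helicase (0.979). Those of Mbnl2 were Cald1, the caldesmon gene of actin filaments (0.978; 376, 542, 669 and 156 CPM), Rora (0.977) and Nectin3 (0.976). Qk had Cyld (0.951), Cask (0.95) and Myo5a (0.948), and Ptbp1 had Rrp12 (0.979), Sf3a2 (0.976) and Eftud2 (0.972), the last 2 being spliceosome genes. Rbfox2 (Sfxn5, 0.875) and Srsf1 (Ints6l, 0.842) had no neighbour above 0.9.

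Transcription factors of the same cell states were read from a list of 11, of which 10 were tested. ZEB1 is a known repressor of ESRP1, and GRHL2 an activator of epithelial genes. Zeb1 was at 3.26 ± 0.868 CPM in the control, 50.5 ± 6.7 in clone1, 17.6 ± 1.56 in clone19 and 1.70 ± 0.492 in Rec. Zeb2 was at 2.82 ± 0.43, 69.4 ± 7.58, 50.5 ± 3.75 and 6.94 ± 1.66 CPM, and Snai2 at 0.819 ± 0.235, 14.4 ± 0.837, 8.18 ± 1.33 and 1.85 ± 0.777. These 3 rose in both clones. In Rec, Zeb2 and Snai2 were also higher than in the control and Zeb1 was lower (adjusted p under 0.05 for each). Grhl2 had 98.7 ± 4.4 CPM in the control, fell to 23.7 ± 2.4 in clone1 (log2 -2.07, adjusted p = 2.85e-19) and 38.9 ± 4.02 in clone19 (log2 -1.34, adjusted p = 2.95e-15), and was at 90.9 ± 4.71 in Rec (adjusted p = 0.112). In the list, 5 rose and 5 fell in clone1, 4 rose and 3 fell in clone19, and 3 rose and 3 fell in Rec. Of all tested genes, 78.6% were called in clone1, 72.9% in clone19 and 70.8% in Rec, so these counts do not set the list apart. Grhl3 fell in all 3 lines, from 1.58 ± 0.219 CPM to 0.133 ± 0.131 in clone1, 0.248 ± 0.198 in clone19 and 0.144 ± 0.0854 in Rec (log2 -3.45 in Rec, adjusted p = 2.08e-08). Twist1 rose in all 3, from 7.95 ± 0.735 CPM to 15.2 ± 2.26, 19.7 ± 1.16 and 17.6 ± 2.01. Twist2 rose in clone1 (log2 1.81) and fell in clone19 (log2 -1.87). It had no count in Rec and was at least 118-fold lower there than in the control (against 3 counts over the group). Ovol1 and Ovol2, epithelial zinc finger genes, fell in clone1 (log2 -0.99 and -1.38) and in clone19 differed from the control by -0.13 (adjusted p = 0.396) and 0.17 (adjusted p = 0.374). Snai1 was near the detection limit and was not tested.

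The E-box letters CACCTG, which ZEB and SNAI proteins read, were searched on both strands in the 250 bases upstream of annotated starts (RefSeq, GRCm38.p6). The table held 10 windows of 7 of the regulators, and 1 window, that of Srsf1, had a match, 161 bases before its start. Of all 32851 windows in the table, 17.2% had a match. Esrp1, Esrp2 and Rbfox2 had no window.

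Other splicing factors were read from 4 lists with 90 genes in all, 75 of them tested. In clone1, 46 fell and 20 rose (median log2 -0.56, against -0.03 over all tested genes, of which 40.5% fell and 38% rose). In clone19, 38 fell and 20 rose (median -0.20 against 0.00; background 36.1% and 36.8%). In Rec, 38 rose and 18 fell (median 0.23 against -0.03; background 33.4% and 37.4%). On library totals these counts were 53 and 16 in clone1, 45 and 15 in clone19, and 33 higher with 24 lower in Rec. The 10 regulators themselves had median changes of -0.31, 0.01 and 0.13 in the 3 lines.

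The SR proteins other than Srsf1, exon-binding splicing activators, were lower in clone1. There 11 of 11 tested genes of that list fell (median log2 -0.85), where 40.5% of all tested genes fell. Of the 11, 3 fell by over 2-fold, where 21.7% of all genes changed by over 2-fold in either direction. Srsf1 had its fitted rise in clone1. Srsf3 fell from 237 ± 15.5 to 88.2 ± 6.7 CPM (log2 -1.43, SE 0.07, adjusted p = 9.33e-16), Srsf5 from 174 ± 16.4 to 64.7 ± 14.5 and Srsf6 from 352 ± 20.6 to 130 ± 23.8 (log2 -1.44 each). In clone19, 9 of 11 fell and Srsf9 rose (median -0.40), where 36.1% of all genes fell and 36.8% rose. Between the clones, 10 of 11 were lower in clone1 (median -0.45), against 33.5% of all genes. The background in Rec was 33.4% higher and 37.4% lower. In Rec, 8 of 11 rose and 1 fell (median 0.32; 6 and 3 on library totals), among them Srsf7, from 180 ± 12.3 to 302 ± 23 CPM, and Tra2b, from 143 ± 8.25 to 214 ± 12.6.

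The 25 hnRNP genes, which package nascent RNA and often silence exons, moved in both directions in the clones and mostly rose in Rec. Of all tested genes, 40.5% fell and 38% rose in clone1, 36.1% and 36.8% in clone19, and 37.4% and 33.4% in Rec. In clone1, 13 fell and 8 rose (median -0.13; 17 and 6 on library totals), and in clone19, 10 fell and 8 rose (median -0.02; 12 and 4 on library totals). Hnrnpm, a splicing regulator linked to mesenchymal exon skipping of CD44, fell from 300 ± 17.2 CPM in the control to 124 ± 7.79 (clone1, log2 -1.28) and 136 ± 6.42 (clone19, log2 -1.14). Pcbp3 was at 5.67 ± 0.707 CPM in the control and at 0.165 ± 0.179 and 0.122 ± 0.139 in clone1 and clone19, and at 5.08 ± 0.77 in Rec. In Rec 20 of 25 rose and 2 fell (median 0.53; 19 and 3 on library totals), led by Hnrnpab, from 560 ± 19.4 to 1068 ± 60.8 CPM (log2 0.93, SE 0.06, adjusted p = 8.25e-13).

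Of 44 listed tissue-regulated splicing factors, 30 were tested. The background over all tested genes was 40.5% lower and 38% higher in clone1. It was 36.1% and 36.8% in clone19, and 37.4% and 33.4% in Rec. In clone1, 17 fell and 8 rose (median -0.72), in clone19, 14 fell and 8 rose (median -0.17), and in Rec, 11 fell and 8 rose (median 0.02, and -0.11 on library totals). Rbms3 was at 57.7 ± 2.68 CPM in the control, 2.61 ± 0.778 in clone1, 39.0 ± 2.56 in clone19 and 26.5 ± 2.72 in Rec (log2 -4.41 in clone1, adjusted p = 3.82e-22). Nova2, a neuronal splicing factor, rose from 0.178 ± 0.179 CPM to 5.2 ± 0.937 in clone1 (log2 4.72) and to 0.705 ± 0.214 in clone19 (log2 1.93, adjusted p = 0.00129). Its paralogue Nova1 rose in clone19 (0.364 ± 0.185 to 3.79 ± 0.967 CPM), was at 0.292 ± 0.216 in clone1 (adjusted p = 0.58) and fell in Rec, where the control to Rec ratio was 11.7 (counting interval 2.96 to 102). Celf4 rose from 25.8 ± 1.81 CPM to 96.8 ± 8.08 in clone1, 69.6 ± 4.48 in clone19 and 40.3 ± 1.76 in Rec. Beside these genes, the summed neuronal markers lay at 27.8 to 38.5 CPM in clone1 and 38.9 to 48.4 in clone19 against 14.6 to 17.6 in the control. In Rec they lay at 23.7 to 29.6 CPM, also above the control, while Nova2 was at 0.207 ± 0.125 CPM there. Only 2 of the 6 neuronal markers were tested by gene. In each clone 1 of them rose and the other was not called, and in Rec 2 rose. The part of these markers in the result was not tested. Khdrbs3 had no count in Rec against 3.86 ± 0.481 CPM in the control, at least 76.6-fold lower against 3 counts over the group. Ptbp2, the neural paralogue of Ptbp1, fell in all 3 lines (64.1 ± 2.92 CPM in the control against 28.4 ± 1.93, 33.0 ± 5.14 and 40.4 ± 2.49), whereas Ptbp1 rose in Rec.

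Kinases that phosphorylate SR proteins showed no common direction. Of 9, 4 rose and 5 fell in clone1, 3 and 5 in clone19, and 2 and 4 in Rec. The background over all tested genes was 38% higher and 40.5% lower in clone1. It was 36.8% and 36.1% in clone19, and 33.4% and 37.4% in Rec. Clk3 rose in all 3 lines, from 45.9 ± 2.05 CPM to 70.3 ± 4.48, 106 ± 2.22 and 60.4 ± 4.14. Srpk2 fell in all 3, from 240.0 ± 8.42 CPM to 197 ± 18.3, 199 ± 13.5 and 125 ± 9.9.

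**Figure D4:**
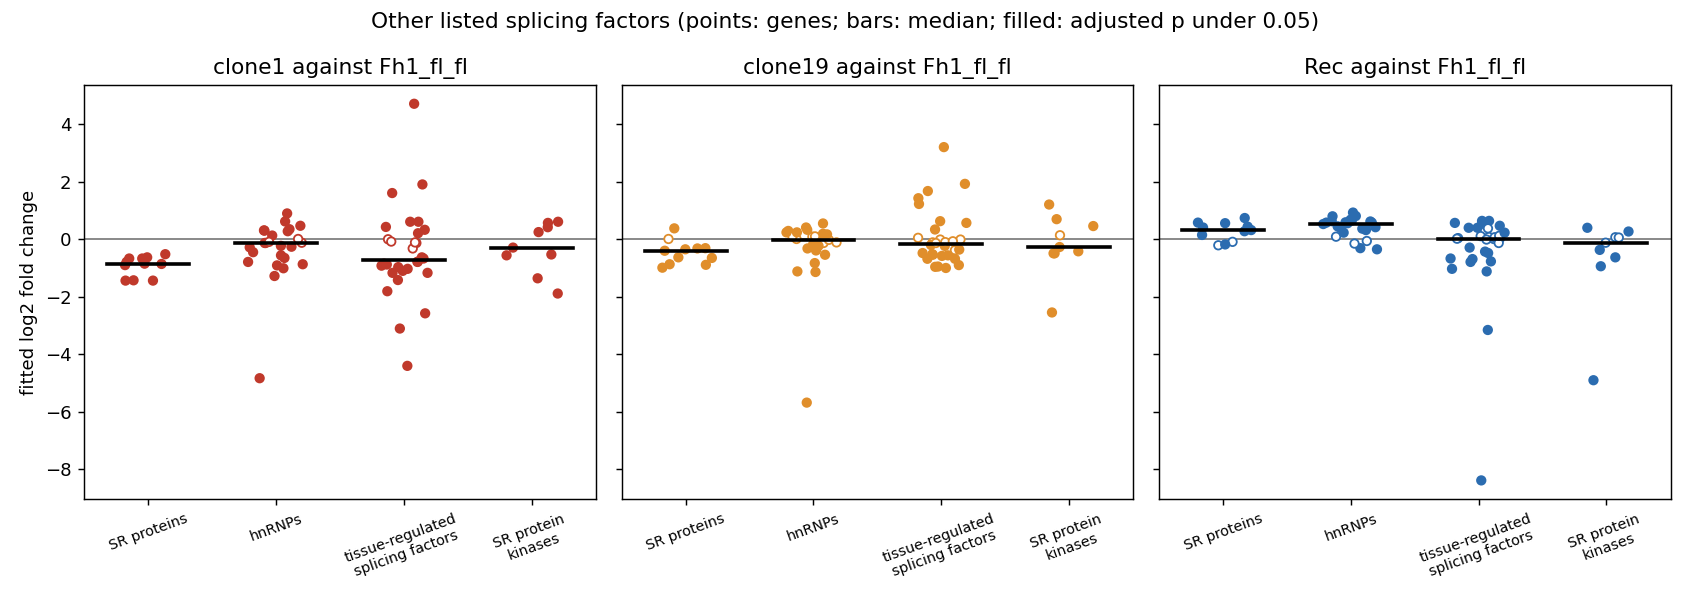
Fitted log2 fold changes against Fh1_fl_fl of 75 other listed splicing factors by list, with points for genes, bars for list medians and filled points for an adjusted p under 0.05. All 11 SR proteins of the list, which leaves out Srsf1, lie below 0 in clone1 (median -0.85) and most hnRNPs above 0 in Rec (median 0.53); the lowest point in Rec is Khdrbs3, whose 0 counts make its fitted value depend on the prior count but not the list median.

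Genes with known epithelial and mesenchymal splice forms were counted as whole genes. Of 15, 7 rose and 5 fell in clone1 (5 and 6 on library totals, which turns the majority), 5 rose and 9 fell in clone19 (5 and 10), and 4 rose and 6 fell in Rec (1 and 9 on library totals). The background of all tested genes was 38% higher and 40.5% lower in clone1, 36.8% and 36.1% in clone19, and 33.4% and 37.4% in Rec. Cd44, whose variable exons ESRP proteins retain, was at 184 ± 20.5 CPM in the control, 457 ± 50.3 in clone1 and 260.0 ± 14.2 in clone19 (log2 1.31 and 0.50), and at 204 ± 16.4 in Rec (adjusted p = 0.091). Fgfr2, whose mutually exclusive exons are a classic ESRP target, was at 38.6 ± 3.03, 45.5 ± 6.26, 35.9 ± 3.09 and 12.6 ± 1.01 CPM in the control, clone1, clone19 and Rec; it fell in Rec (log2 -1.62, SE 0.09, adjusted p = 1.37e-14). Ctnnd1, the p120 catenin gene, fell in all 3 lines (442 ± 8.3 CPM in the control against 301 ± 19.7, 256 ± 16.9 and 322 ± 24.5). Enah, an actin regulator, rose in clone1 (154 ± 3.24 to 220.0 ± 28.9) and fell in clone19 (132 ± 9.11) and Rec (93.1 ± 8.25).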

How the data were processed

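RNA sequencing gave 20 libraries, grouped by sample title and genotype label. The deposited tables hold raw counts per Ensembl gene for each library. GRCm38, TopHat2 (version 2.0.4), HTSeq (version 0.5.3p9) and DESeq (version 1.10.1) are named in the submitters' processing notes, with no role; no source used here gives the annotation or strand setting. Reads without a unique alignment (28.8 to 40.3% of a library) and in no feature (3.28 to 6.73%) were left out. The counts were fitted in R 4.3.3 with edgeR 4.0.16 (filterByExpr, TMM, glmQLFTest, 1 mean per group, all 20 libraries), adjusted by Benjamini-Hochberg over 12671 genes; 26508 were excluded for low counts. Calls over 2-fold used glmTreat. The common coefficient of biological variation was 9.02%, and the script was tested on simulated data. A count of 3, the limit that 0 counts allow, equals 0.158 to 0.501 CPM; floors and ratios cover counting error only. Lengths, UTRs and symbols came from GENCODE M21, and transcripts were compared with blastn 2.17.0. Named are all 10 regulators, the genes most like each (up to 3; 1 is not reported here), the transcription factors, and from each list the called genes with the largest rises and falls, with some of them described. The regulators and lists were chosen with earlier results of these data known. Alternatives were RLE scaling, library totals, DESeq2 1.42.0, no filter, a mean of at least 5 CPM, only the 2 groups compared, a replicate block and leaving out each library.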

Additional observations from a re-analysis of the deposited data

Results flagged for a closer look

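For 5 of the 40 sets of 5 libraries (10 genes in 4 groups), 1 library stood apart from the other 4 by more than 0.71 of the group's range; chance gives about 1 in 20. Rbm47 was at 59.7 CPM in clone1 replicate 5 against 55.8 to 56.4 in the others, and Ptbp1 in the same library at 416 CPM against 359 to 372. Mbnl2 was at 135 CPM in clone1 replicate 1 against 156 to 161. Mbnl3 was at 28.1 CPM in Fh1_fl_fl replicate 2 against 25.0 to 25.7, and Ptbp1 at 601 CPM in Rec replicate 4 against 633 to 646.

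Clone1 and clone19 differed for 7 of the 10 regulators by the direct test, in which the control mean does not enter. What is particular to a clone and what follows the deletion cannot be told apart in this test. As log2 of clone1 minus clone19, the difference was -2.14 for Esrp1 (edgeR adjusted p = 1.97e-21), -2.88 for Mbnl3 (9.33e-16), -0.37 for Qk (8.49e-05) and -0.33 for Mbnl1 (2.22e-05). It was 0.26 for Rbfox2 (0.00197), 0.24 for Rbm47 (0.00205) and -0.17 for Mbnl2 (0.0346, lost in most alternatives). The background in this comparison was 65.1% of all tested genes called, and 9.58% over 2-fold against 2 of the 10 regulators (Esrp1 and Mbnl3).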

How the results depend on the processing

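No change of direction occurred among called values, and the number of regulators called in each comparison stayed within 1.5 times under every alternative run. Among log2 fold changes of single regulators, library totals ended 4 calls and added 2, RLE scaling ended 1 and added 2, DESeq2 ended 1 and added 3, the fit of only the 2 groups ended 1 and added 4, no filter ended 3, and the mean of at least 5 CPM ended 1 and added 1. Over all runs that left out 1 library, 15 calls ended, 13 were added and 572 values were labelled the same. On library totals 1 regulator, Esrp2, was over 2-fold in Rec against Fh1_fl_fl, where the reported fit gave 0. Leaving out 1 library gave 1 to 2 regulators over 2-fold in clone19 against Rec (2 without Rec replicate 5). Restricting the test to genes with a mean of at least 5 CPM lowered the genes over 2-fold from 2752 to 1746 (clone1 against Fh1_fl_fl), 1961 to 1104 (clone19), 1401 to 833 (Rec), 1214 to 658 (clone1 against clone19) and 1960 to 1167 (clone19 against Rec), by its own construction, since fewer genes are tested. No clear pairing by replicate number was seen. Correlations of same-numbered libraries ran from -0.197 to 0.163, and at most 3 of 10 libraries correlated best with their own number. Pairing with small effects cannot be told from no pairing this way, and the labels do not state any. With the replicate number as a block, 10 regulators were called in clone1, 6 in clone19 and 7 in Rec, as without it; 1 call was lost (Rbfox2, clone1 against Rec, log2 0.15). Depth limits Srsf1 and, in clone1, Mbnl3, with 26 to 142 counts in a library.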
